A study of Mus musculus with 3 samples.

Results

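The genes described here are 42 genes that copy DNA or supply its building blocks, followed in differentiated muscle cells after knockdown of the transcription factor Tead4. They were taken by symbol from a fixed list of names, and each of the 42 had 1 row in a table of 20162 genes. The cells were C2C12, a mouse myoblast line that fuses into multinucleated myotubes when serum is withdrawn. Every population received a short hairpin RNA (shRNA) by lentiviral infection, was held under puromycin and then spent 7 days in low horse serum to differentiate. One carried a control shRNA (labelled ShSC, called control here), and the others carried independent shRNAs against Tead4 (labelled ShA and ShB; shRNA A and shRNA B in the plots). Where 3 values follow a gene they stand in the order control, ShA, ShB. Each population gave 1 library of polyadenylated RNA, so there were 3 libraries and no repeat culture of any shRNA.

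DNA replication starts at origins, where the loading factors Cdc6 and Cdt1 place the ring-shaped helicase Mcm2 to Mcm7 on DNA. The GINS complex and Mcm10 help to switch this helicase on, polymerases alpha, delta and epsilon copy the strands, and the clamp Pcna, its loader and the single-strand binding protein RPA serve them. Myotube nuclei have left the cell cycle for good, whereas undifferentiated cells that remain among the myotubes can still enter it, and many replication genes are known targets of E2F transcription factors in dividing cells.

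The libraries held 15594305 to 19918954 counted reads. Tead4 itself had 1256, 397 and 170 reads. Of 7 markers of differentiated muscle, 4 fell (Myog, Myh3, Ckm and Tnnt3) and 0 rose, and their summed level went from 18698 CPM (the read count scaled to library size) to 11112 and 13086 CPM. All 4 markers of dividing cells (Mki67, Ccnb1, Cdk1 and Plk1) rose, from a summed 18.3 CPM to 84.1 and 81.6 CPM. Among 3 markers of myoblasts and reserve cells, Myf5 fell, and Myod1 and Pax7 did not pass the test (log2 fold changes of 0.71 and 0.64); the 3 summed to 157, 204 and 215 CPM. Markers of other cell types were low: the 3 endothelial genes summed to 0.560, 0.746 and 0.888 CPM, with Pecam1 and Cdh5 at 0 reads in the control. The 2 measured leukocyte markers summed to 1.56, 2.68 and 3.36 CPM, and the 2 measured fibroblast markers to 20.9, 24.2 and 15.6 CPM. In bulk RNA, more dividing cells and more RNA of these genes per cell cannot be told apart, and the part of either in the values below was not tested.

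With Tead4 shRNA, 13 of the 42 replication genes rose, 1 fell and 28 did not pass the test (edgeR quasi-likelihood test, adjusted p under 0.05 over all 14478 tested genes). Those that rose were 5 of the 6 helicase subunits (Mcm2, Mcm3, Mcm4, Mcm5 and Mcm6), Mcm10, Gmnn, Lig1, Rrm2, Tyms, Chaf1a, Uhrf1 and Top2a. Pold2, a subunit of polymerase delta, fell. Of all tested genes, 5.34% rose and 4.48% fell, against 31.0% and 2.38% of the replication genes. The median log2 fold change of the 42 genes was 0.63, against 0.02 over all tested genes. Each shRNA library alone gave a median log2 ratio to the control of 0.70 (ShA) and 0.57 (ShB). The same control library enters both ratios, and it is the only one, so how far it would differ from another control culture is not known. All 42 genes passed the filter on low counts, but Cdc6 and Mcm10, with 8 reads each in the control library, passed only through the Tead4 shRNA libraries. Without them 12 of 40 genes rose, and the median log2 fold change was 0.61. With DESeq2, 8 of the 42 genes rose and 0 fell, where 464 of all 14478 tested genes rose and 374 fell. There the calls of Gmnn, Mcm10, Pold2, Lig1, Tyms and Chaf1a ended, at adjusted p from 0.0548 to 0.208. The calls of Gmnn, Mcm10 and Tyms also ended with limma-voom (adjusted p of 0.0681, 0.0520 and 0.0597), and that of Tyms with RLE scaling in edgeR (0.0607). A likelihood-ratio test with the dispersion taken over all 3 libraries as 1 group called 0 replication genes in either direction. It called 0 of all 14478 tested genes as well. At an unadjusted p under 0.05 with that test, 4 replication genes (Mcm3, Mcm10, Uhrf1 and Top2a) were higher. Of all 14478 tested genes, 540 were under it in either direction.

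**Figure D1:**
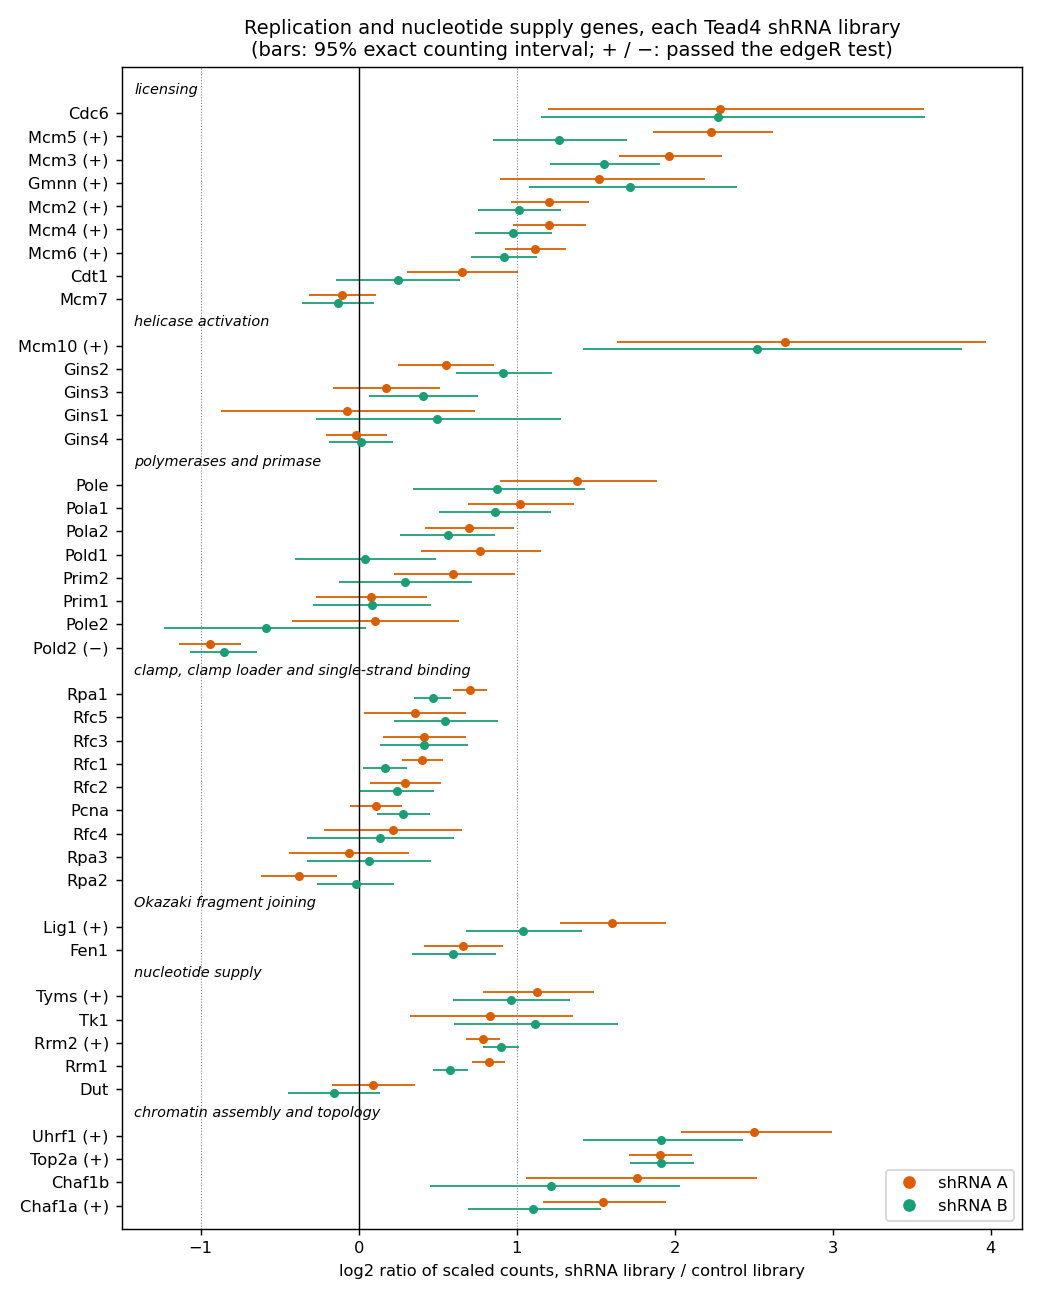
Log2 ratio of scaled counts to the control library for each of the 42 genes, by role, with shRNA A in orange and shRNA B in green; bars are 95% exact counting intervals, and + or − marks genes that passed the edgeR test. Mcm2 to Mcm6 lie between 0.92 and 2.23 while Mcm7 lies at -0.10 and -0.13, and the clamp and clamp loader genes lie between 0.11 and 0.55.

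Judged by each library alone, 11 of the 42 genes were at least 2-fold higher than the control in both shRNA libraries with intervals that exclude no change, and 0 were 2-fold lower. Over all tested genes these shares were 4.63% and 3.1%. The 11 genes were Cdc6, Gmnn, Mcm2, Mcm3, Mcm5, Mcm10, Lig1, Chaf1a, Chaf1b, Uhrf1 and Top2a. Both counting intervals lay above 1 for 27 genes, a share of 64.3% against 21.7% of all tested genes. Cdc6 and Mcm10, which passed the filter only through the Tead4 shRNA libraries, are in both counts. Without them, 9 of 40 genes (22.5%) were 2-fold higher and 25 (62.5%) had both intervals above 1. Genes that missed the test were of different kinds. For 12 of the 28, the approximate 95% interval of the log2 fold change stayed within 2-fold of no change in both directions: Mcm7, Gins3, Gins4, Prim1, Pcna, Rfc1, Rfc2, Rfc3, Rfc4, Rpa2, Rpa3 and Dut, with log2 fold changes from -0.19 to 0.41. Smaller changes are not excluded, and among these 12 Rfc1, Rfc2 and Rfc3 had both counting intervals above 1. For the other 16 that interval reached past 2-fold, and in 10 of those it lay wholly above 0 (Cdc6, Gins2, Pola1, Pola2, Pole, Rpa1, Fen1, Rrm1, Tk1 and Chaf1b), so these are not shown to have stayed level. On either side of the threshold stood Tyms, inside at an adjusted p of 0.0427, and Cdc6 and Rrm1, outside at 0.0504 and 0.0559 (edgeR).

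**Figure D2:**
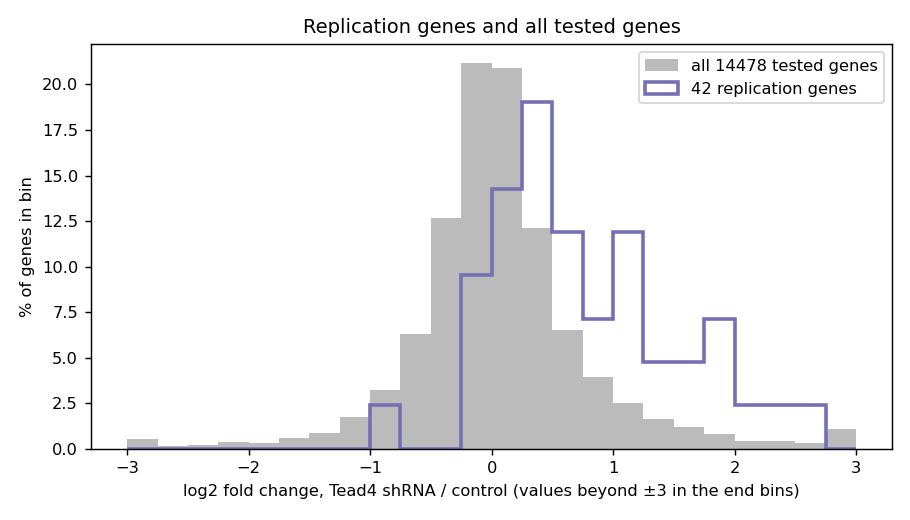
Share of genes in each bin of log2 fold change (Tead4 shRNA against control), for all 14478 tested genes in grey and the 42 replication genes in purple outline. The replication genes have a median of 0.63 and all tested genes one of 0.02.

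Promoter sequences are shown for 6 of the genes, because they allow helicase subunits that rose to be set beside one that did not. RefSeq windows (build GRCm38.p6, from 250 bases before to 50 after the annotated start) were found for 34 of the 42 genes, those other than Gins1, Gins2, Gins4, Gmnn, Mcm4, Pole, Prim2 and Rfc2. Stretches of 20 bases after the start were sought in each gene's GENCODE M21 transcript with the longest coding part, and 26 of the 34 matched. For the rest the start was not matched to that transcript. Each line gives the 200 bases before the start, 5′ to 3′ on the gene's strand, in that later build and not the mm9 build named for these data. Capitals mark every match, on either strand, that ends before the start. The words were an E2F-type site (TTTCCCGC, TTTGGCGC, TTTCGCGC or TTTGCCGC), a CCAAT box (CCAAT), a cell cycle homology region (TTTGAA or TTCGAA) and a TEAD site (GGAATG). Mcm6, Mcm5, Uhrf1 and Top2a rose, and Mcm7 and Gins3 did not pass the test.
Mcm6, chr1:128359706-128359905, minus strand: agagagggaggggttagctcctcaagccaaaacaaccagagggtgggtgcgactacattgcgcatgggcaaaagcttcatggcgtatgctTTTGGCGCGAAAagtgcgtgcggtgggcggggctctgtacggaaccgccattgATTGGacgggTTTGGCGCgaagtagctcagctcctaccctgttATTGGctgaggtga
Mcm5, chr8:75109309-75109508, plus strand: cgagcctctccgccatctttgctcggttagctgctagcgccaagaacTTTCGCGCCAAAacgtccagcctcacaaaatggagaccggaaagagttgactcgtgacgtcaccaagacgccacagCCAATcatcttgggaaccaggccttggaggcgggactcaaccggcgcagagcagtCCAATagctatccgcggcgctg
Uhrf1, chr17:56303137-56303336, plus strand: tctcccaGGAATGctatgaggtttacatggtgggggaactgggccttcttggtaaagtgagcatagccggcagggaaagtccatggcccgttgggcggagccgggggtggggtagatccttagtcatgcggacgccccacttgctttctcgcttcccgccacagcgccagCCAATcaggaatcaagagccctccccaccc
Top2a, chr11:99024190-99024389, minus strand: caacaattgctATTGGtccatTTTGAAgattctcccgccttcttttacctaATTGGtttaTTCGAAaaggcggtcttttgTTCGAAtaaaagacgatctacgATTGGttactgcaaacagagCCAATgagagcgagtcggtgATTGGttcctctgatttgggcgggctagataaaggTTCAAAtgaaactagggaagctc
Mcm7, chr5:138171884-138172083, minus strand: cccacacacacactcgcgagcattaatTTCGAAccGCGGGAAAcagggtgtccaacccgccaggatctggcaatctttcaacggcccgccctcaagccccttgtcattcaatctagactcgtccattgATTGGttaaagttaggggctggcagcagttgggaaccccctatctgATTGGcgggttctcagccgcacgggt
Gins3, chr8:95633359-95633558, plus strand: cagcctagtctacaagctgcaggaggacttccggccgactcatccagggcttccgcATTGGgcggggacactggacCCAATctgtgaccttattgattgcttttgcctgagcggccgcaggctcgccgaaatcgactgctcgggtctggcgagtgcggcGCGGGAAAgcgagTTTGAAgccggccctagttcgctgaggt
Mcm6 holds E2F-type words that start 110, 106 and 47 bases before the start, of which the first and second overlap, and Mcm5 holds overlapping ones at 153 and 149 bases. Mcm7 and Gins3, which did not pass the test, hold such a word as well, at 165 and 41 bases. The same window of Mcm7 holds another E2F-type word at base 17 after the start, outside the line shown. Mcm7 also has a second annotated window, not shown, with a CCAAT box. Top2a has no E2F-type word in its window, but 6 CCAAT boxes and 4 matches to the cell cycle homology region. Uhrf1 has a TEAD word 193 bases before the start shown, and a second annotated window of the gene, not shown, holds an E2F-type word.

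An E2F-type word stood in a window of 13 of the 34 replication genes, or 38.2%, against 4.66% of the 8585 tested genes that have a window and 2.26% of all 32851 windows. Those 13 were Cdc6, Cdt1, Gins3, Lig1, Mcm3, Mcm5, Mcm6, Mcm7, Pola1, Pold1, Pole2, Rfc3 and Uhrf1. Of genes with a window, 5 of the 11 that rose held the word and 8 of the 22 that did not pass the test. CCAAT boxes stood in 61.8% of the 34 genes (43.1% of tested genes), in 9 of the 11 that rose and 11 of the 22 not called. The cell cycle homology region was matched in 20.6% of the 34 genes (16.0% of tested genes), in 2 of the 11 that rose and 4 of the 22 not called. The TEAD word occurred in Chaf1b, Lig1, Mcm3, Rpa2 and Uhrf1, or 14.7% of the 34 genes (14.9% of tested genes), in 3 of the 11 that rose and 2 of the 22 not called. Across all 400 tested genes with an E2F-type word, 7.25% rose, against 5.72% of those without one. All shares of tested genes given here include the replication genes, which were 5 of the 29 genes with the word that rose. The shares that rose with and without a match were 6.84% and 4.99% for the CCAAT box, 8.15% and 5.34% for the cell cycle homology region, and 6.82% and 5.61% for the TEAD site. These are letter matches in a fixed window, and binding was not measured.

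Of the 6 helicase subunits, whose proteins form 1 ring, Mcm2 to Mcm6 rose and Mcm7 did not pass the test. Mcm3 had 95, 465 and 274 reads, or 5.92, 23.1 and 17.4 CPM, and rose by 1.78 on the log2 scale (SE 0.31, edgeR adjusted p = 5.33e-04). Mcm5 had 69, 406 and 163 reads, a change of 1.83 (SE 0.38), and its ratio was larger under ShA (log2 2.23, 95% counting interval 1.86 to 2.62) than under ShB (1.27, 0.85 to 1.70). In both genes the control library was the lowest and ShA the highest. Mcm2 (185, 535 and 367 reads) rose by 1.11 (SE 0.26), Mcm4 (211, 610 and 408 reads) by 1.10 (SE 0.26) and Mcm6 (295, 802 and 548 reads) by 1.02 (SE 0.25). Mcm7 had 341, 398 and 306 reads, or 21.2, 19.8 and 19.4 CPM, a log2 fold change of -0.12 with an approximate 95% interval of -0.62 to 0.39. Its 3 scaled values lay close together, and the control was the highest of them, where it was the lowest for each of the other subunits.

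The ratio of 2 genes within a library does not depend on how libraries are scaled. There were 0.279, 1.17 and 0.895 Mcm3 reads per Mcm7 read, a 4.19-fold (95% exact interval 3.20 to 5.52) and 3.21-fold (2.41 to 4.30) higher ratio. The Mcm6 to Mcm7 ratio was 2.33-fold (1.90 to 2.85) and 2.07-fold (1.67 to 2.57) higher, and those of Mcm2, Mcm4 and Mcm5 to Mcm7 lay between 2.15-fold and 5.04-fold. All 10 intervals, which cover counting error between libraries only, excluded 1. Per kilobase of transcript, Mcm7 was the most abundant of the 6 subunits in the control library, at 7.17 CPM per kb against 1.27 for Mcm5, the lowest. It had rank 5 of 6 under ShA and rank 4 under ShB, or the lowest level under ShA where the shortest transcript of the same coding length was used for each gene. With the first set of lengths, Mcm6 was highest under ShA and ShB, at 13.7 and 11.95 CPM per kb. The highest level was 5.64, 2.30 and 3.91 times the lowest in the 3 libraries, and with coding length in place of transcript length these were 5.05, 1.77 and 3.01. With the shortest transcripts they were 4.34, 2.05 and 3.01. Some of the Mcm7 transcript (22.0% of its stretches of 72 bases, the read length) is also found in the opposite-strand gene Ap4m1 or in Gm5487, and this library kit does not mark strand, so part of its count is uncertain.

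**Figure D3:**
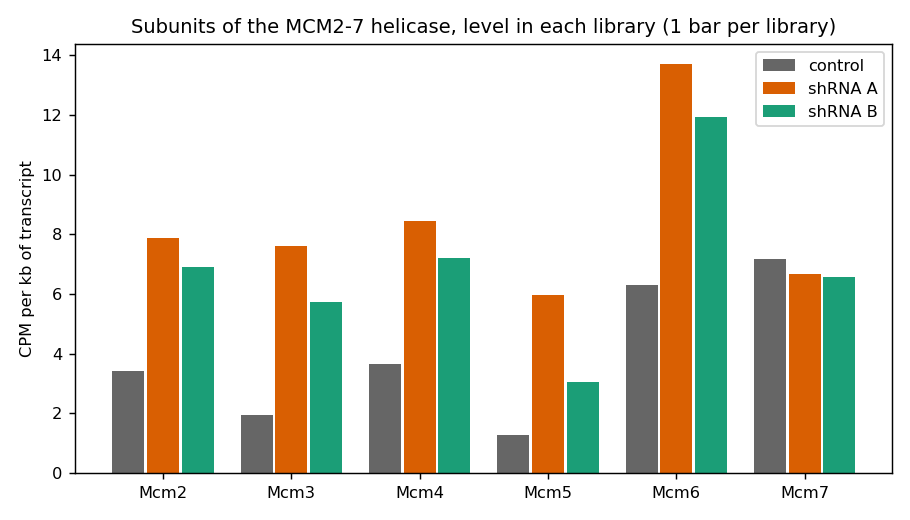
Level of each helicase subunit in CPM per kilobase of transcript, 1 bar per library, with the control in grey, shRNA A in orange and shRNA B in green. Mcm7 is the tallest control bar at 7.17 and stays between 6.56 and 7.17, while the other 5 subunits are higher in both Tead4 shRNA libraries than in the control.

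Of the factors that load the helicase, geminin (Gmnn), the inhibitor of Cdt1, rose, while Cdt1 itself did not pass the test. Gmnn had 27, 97 and 87 reads and rose by 1.61 (SE 0.47, edgeR adjusted p = 0.0295). Cdt1 had 103, 203 and 120 reads, and its ratio to the control was 0.65 (0.30 to 1.01) on the log2 scale under ShA but 0.25 (-0.14 to 0.64) under ShB. The Gmnn to Cdt1 read ratio was 1.82-fold (1.10 to 3.09) and 2.77-fold (1.63 to 4.78) higher than in the control. Cdc6, the ATPase that loads the helicase with Cdt1, had 8, 49 and 38 reads. Both shRNA libraries lay 4.89-fold and 4.84-fold above the control, yet on so few control reads the edgeR adjusted p was 0.0504, and over the 8 alternatives other than the likelihood-ratio test it ranged from 0.0125 to 0.232.

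Mcm10, which acts in helicase activation, had 8, 65 and 45 reads and the largest fitted change of the 42 genes (2.60 on the log2 scale, SE 0.68, edgeR adjusted p = 0.0155). Because Mcm10 passed the filter on low counts only through the Tead4 shRNA libraries, this rank and p-value come from a gene selected by its high values there. Its call ended with DESeq2 (adjusted p = 0.0891) and with limma-voom (0.0520). The 4 GINS subunits (Gins1 to Gins4) did not pass the test, with log2 fold changes from 0.00 to 0.74. Gins4 was level, with 25.1, 24.9 and 25.4 CPM and an approximate 95% interval of -0.49 to 0.50. Gins2 had the largest log2 fold change of the 4, with 141, 259 and 261 reads and both counting intervals above 1, although 70.2% of its transcript's 72-base stretches are shared with Gse1 on the opposite strand. Gins1, at 26, 31 and 36 reads, was too thinly covered to be placed: its approximate interval ran from -1.06 to 1.52.

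Among the polymerase genes, 0 of 8 rose with edgeR and with DESeq2, and Pold2 fell with edgeR. Of all tested genes, 5.34% rose and 4.48% fell with edgeR, and 464 of 14478 rose with DESeq2. A count of 0 of 8 therefore does not set these genes apart from the rest. At an unadjusted edgeR p under 0.05, 3 of the 8 (Pola1, Pola2 and Pole) were higher, against 11.9% of all tested genes. Pold2, the accessory B subunit of polymerase delta, had 534, 349 and 290 reads, or 33.3, 17.3 and 18.4 CPM, and fell by 0.90 on the log2 scale (SE 0.23, edgeR adjusted p = 0.0155). Over the same 8 alternatives its adjusted p ranged from 0.00695 to 0.0992, the last with DESeq2. The Tead4 shRNA libraries were close to each other and both below the control. Pold1, the catalytic subunit of the same enzyme, had 87, 186 and 88 reads: it was higher under ShA (log2 ratio 0.77, 0.40 to 1.16) and close to the control under ShB (0.04, -0.40 to 0.49). The Pold1 to Pold2 read ratio was 3.27-fold (2.43 to 4.42) higher under ShA and 1.86-fold (1.32 to 2.62) higher under ShB. The other subunits of polymerase delta, Pold3 and Pold4, did not pass the test (-0.10, SE 0.26, and 0.38, SE 0.23).

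The catalytic subunits of polymerases alpha and epsilon were the highest of the polymerase genes without passing the test. Pola1 had 106, 270 and 189 reads (0.95 on the log2 scale, SE 0.32, edgeR adjusted p = 0.0633), and Pole had 46, 150 and 83 reads (1.15, SE 0.42, adjusted p = 0.0902). For both genes the 2 counting intervals lay above 1. Prim1, the catalytic primase subunit that works with Pola1, was at 7.54, 7.95 and 7.996 CPM, and the Pola1 to Prim1 read ratio was 1.93-fold (1.37 to 2.70) and 1.71-fold (1.20 to 2.45) higher than in the control. Pole2, the second subunit of polymerase epsilon, had 55, 74 and 36 reads, with a log2 ratio of 0.10 under ShA and -0.58 under ShB. The Pole to Pole2 read ratio was 2.42-fold (1.46 to 4.03) and 2.76-fold (1.53 to 4.98) higher. The small subunits Pole3 and Pole4 had log2 fold changes of 0.06 (SE 0.22) and -0.45 (SE 0.24) and did not pass the test. Pola2 and Prim2, the regulatory subunits, had log2 fold changes of 0.63 and 0.46.

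**Figure D4:**
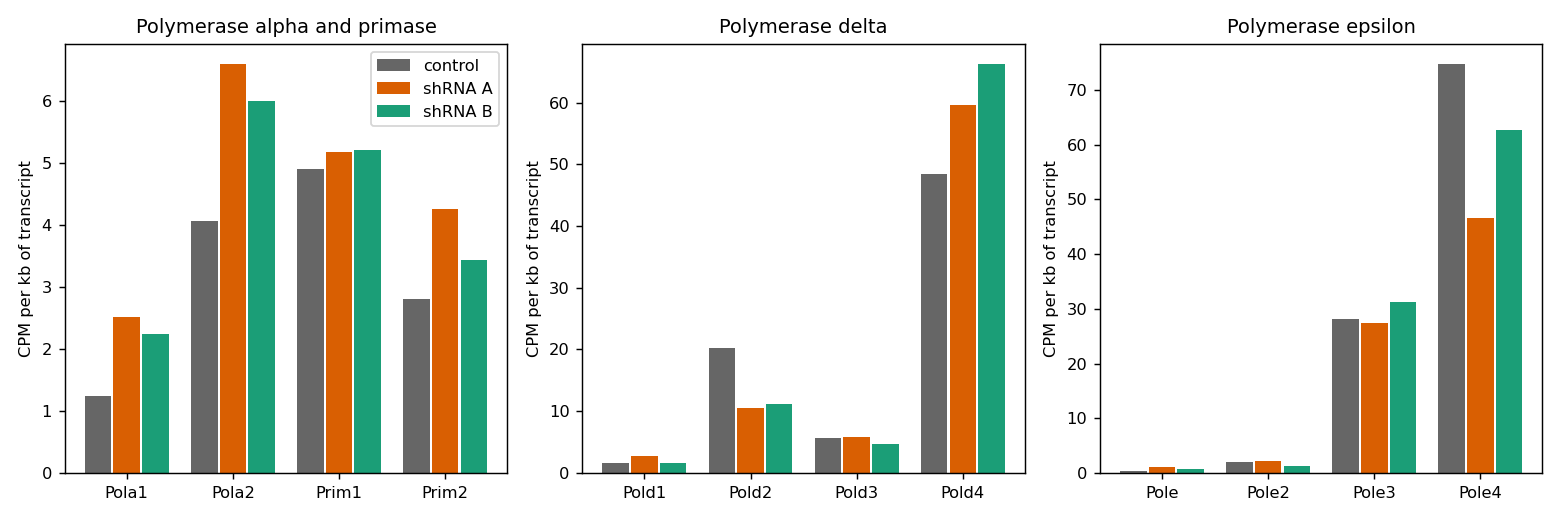
Levels of the subunits of the replicative polymerases in CPM per kilobase of transcript, 1 bar per library, with a separate vertical scale in each panel. Pold2 falls from 20.2 in the control to 10.5 and 11.2, while the catalytic subunits Pola1 and Pole are higher in both Tead4 shRNA libraries than in the control.

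Of the clamp, its loader and the RPA genes, 0 of 9 passed the edgeR test in either direction, and 7 of the 9 had an approximate interval within 2-fold of no change. Since 5.34% of all tested genes rose and 4.48% fell with that test, 0 of 9 alone does not set these genes apart. At an unadjusted p under 0.05, 1 of the 9 (Rpa1) was higher, which is near the 11.9% of all tested genes. DESeq2 called 0, and the median log2 fold change was 0.27. Both counting intervals lay above 1 for 5 of the 9 (55.6%), against 21.7% of all tested genes. Pcna, the sliding clamp, had 33.3, 35.9 and 40.4 CPM. Rfc1 to Rfc5, the 5 subunits of the clamp loader, had log2 fold changes from 0.18 (Rfc4) to 0.45 (Rfc5), with all 5 ratios above 1 in both libraries and all 10 of them below 1.5-fold. Of the RPA trimer, which coats single-stranded DNA, the large subunit Rpa1 had 1043, 2132 and 1417 reads (log2 ratios 0.71, 0.60 to 0.81, and 0.47, 0.35 to 0.59), a log2 fold change of 0.59 that did not pass the test (adjusted p = 0.114). Rpa2 had 18.1, 13.9 and 17.8 CPM and Rpa3 had 6.79, 6.51 and 7.11 CPM, with log2 fold changes of -0.19 and 0.00. Part of the Pcna transcript (24.7% of its 72-base stretches) is identical to the pseudogene Pcna-ps2.

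Of the genes that finish the lagging strand, the DNA ligase Lig1 rose by 1.35 on the log2 scale, with 94, 358 and 190 reads (SE 0.33, edgeR adjusted p = 0.0102, and 0.0548 with DESeq2). The flap nuclease Fen1, which trims the fragments that Lig1 joins, had 199, 394 and 296 reads and a change of 0.63 (SE 0.27, edgeR adjusted p = 0.157). Its values are uncertain, since 80.1% of its 72-base stretches are shared with opposite-strand genes of a later annotation. The Lig1 to Fen1 read ratio was 1.92-fold (1.44 to 2.59) higher under ShA, but under ShB the interval included 1 (0.991 to 1.87).

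In nucleotide supply, 2 of 5 genes (Rrm2 and Tyms) rose with edgeR, against 5.34% of all tested genes. With DESeq2 the call of Tyms ended and that of Rrm2 stayed. Ribonucleotide reductase makes deoxynucleotides from ribonucleotides, and per kilobase of transcript Rrm2 was the most abundant of the 42 genes in the control library. Rrm2, the subunit tied to S phase, had 1012, 2187 and 1854 reads and rose by 0.84 (SE 0.23, edgeR adjusted p = 0.0201). Rrm1, the large subunit, had 1075, 2384 and 1578 reads, a change of 0.71 (SE 0.23) at an adjusted p of 0.0559, and 5 of 8 alternatives called it. The interval of the Rrm2 to Rrm1 ratio included 1 under ShA (0.974-fold, 0.877 to 1.08), and the ratio was 1.25-fold (1.12 to 1.39) higher under ShB. The subunit Rrm2b, a p53 target that serves cells outside S phase, went the other way: it had 1533, 827 and 908 reads and fell by 0.95 on the log2 scale (SE 0.23, edgeR adjusted p = 0.00841). There were thus 0.660, 2.64 and 2.04 Rrm2 reads per Rrm2b read.

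Thymidylate synthase (Tyms), which makes dTMP from dUMP, had 94, 258 and 180 reads and rose by 1.05 (SE 0.33, edgeR adjusted p = 0.0427). Thymidine kinase Tk1, on the salvage route to the same product, had 48, 107 and 102 reads and a similar fitted change of 0.98 (SE 0.42), but its adjusted p was 0.161. Dut, which removes dUTP and supplies dUMP, was level, at 13.1, 14.0 and 11.8 CPM with an approximate 95% interval of -0.61 to 0.57. The Rrm2 to Dut read ratio was 1.62-fold (1.33 to 1.97) and 2.08-fold (1.67 to 2.58) higher than in the control.

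**Figure D5:**
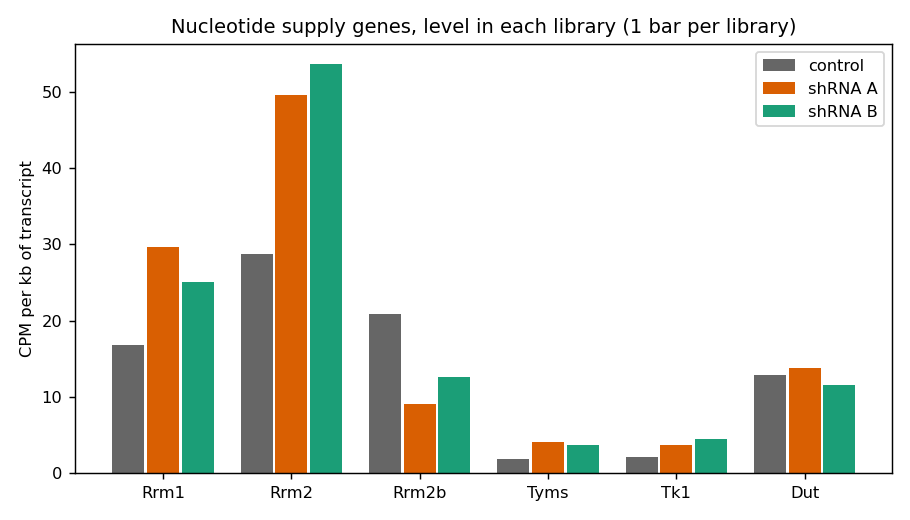
Levels of nucleotide supply genes in CPM per kilobase of transcript, 1 bar per library. Rrm2 is higher with both Tead4 shRNAs (28.7 in the control, 49.6 and 53.7), Rrm2b is lower (20.9, then 9.01 and 12.6), and Dut stays between 11.6 and 13.7.

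Among genes of chromatin assembly and DNA topology, 3 of 4 rose with edgeR, against 5.34% of all tested genes. The group's median of 1.71 (log2 fold change) was the highest of the 7 roles. Uhrf1, which recognises hemimethylated DNA behind the fork and brings in the maintenance methyltransferase, had 43, 305 and 159 reads and rose by 2.24 (SE 0.39, edgeR adjusted p = 5.16e-04). Of its 72-base stretches, 12.01% are shared with Gm5648. Its partner Dnmt1 did not pass the test (0.35, SE 0.23). Top2a, the topoisomerase that untangles replicated DNA, had 257, 1207 and 951 reads and rose by 1.91 (SE 0.25, adjusted p = 2.02e-05), and the 2 shRNA libraries were nearly equal at 60.0 and 60.4 CPM. The related Top2b, which is also used outside division, did not pass the test (0.27, SE 0.23), and the Top2a to Top2b read ratio was 2.85-fold (2.47 to 3.30) and 3.42-fold (2.95 to 3.98) higher than in the control. The histone chaperone subunits Chaf1a and Chaf1b had like fitted changes, but only Chaf1a passed the test. Chaf1a had 71, 260 and 150 reads and rose by 1.35 (SE 0.36, edgeR adjusted p = 0.0171), but its call ended with DESeq2 (0.0923). Chaf1b had 21, 89 and 48 reads and a change of 1.51 (SE 0.54, edgeR adjusted p = 0.0837). The ratio between them was 0.864-fold and 0.924-fold that of the control, with wide intervals that included 1 (0.476 to 1.52 and 0.487 to 1.71). Chaf1a shares 44.3% of its 72-base stretches with the opposite-strand gene Ubxn6, and Lig1, Pole, Rfc2, Rfc4, Rfc5 and Tk1 also overlap genes on the other strand.

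The shRNA libraries were also compared with each other, as single libraries with no replicate check. Tead4 was lower under ShB than under ShA (10.8 against 19.7 CPM), whereas 28 of the 42 replication genes had the higher scaled count under ShA, against 50% of all tested genes. The counting interval put 15 genes higher under ShA and 4 higher under ShB. Over all tested genes these shares were 25.4% and 25.3%, against 35.7% and 9.52% of the replication genes. The largest gaps in favour of ShA were those of Mcm5 (log2 ratio of B to A -0.96, -1.24 to -0.70), Pold1 (-0.73), Pole2 (-0.69), Uhrf1 (-0.59) and Lig1 (-0.56). Gins2, Pcna, Rpa2 and Rrm2 were higher under ShB, by 0.36, 0.17, 0.36 and 0.11.

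The rest of the replication machinery was read from a list of 73 further genes, all of which were matched and tested. Of these 9 rose, 2 fell and 62 did not pass the test, and their median was 0.27 on the log2 scale, where 5.34% of all tested genes rose and 4.48% fell. With DESeq2 the count of those that rose was 4, against 464 of all 14478 tested genes. With limma-voom it was 6, against 689 of all tested genes. Of the 73, Orc1, Ticrr, Dscc1 and Esco2 passed the filter on low counts only through the Tead4 shRNA libraries. Of the other 69, 8 rose, and their median was 0.22. Among the genes that rose were Orc6 (0.86, SE 0.24), the histone chaperone Asf1b (1.96, SE 0.32), the chromatin remodeller Hells (1.66, SE 0.40), the Pcna-binding protein Pclaf (2.35, SE 0.49) and the fork protein Wdhd1 (1.55, SE 0.48). Clspn, Chtf18 and Esco2 also rose, Esco2 from 8 reads in the control to 76 and 74. Within the origin recognition complex, which marks the sites where the helicase is loaded, Orc6 rose while the others did not pass the test: Orc2, Orc3, Orc4 and Orc5 had log2 fold changes from -0.61 to 0.36, and Orc1, at 8, 29 and 26 reads, one of 1.62. The helicase partner Cdc45 (0.27, SE 0.38) and the kinase subunits Cdc7 (1.73, SE 0.60) and Dbf4 (0.37, SE 0.31), which fire origins, did not pass the test. Mtbp, an origin firing factor, fell by 1.31 (SE 0.25), and Rrm2b is the other gene of the list that fell.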

How the data were processed

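The deposited table lists, for every Ensembl gene, the raw read count in each of the 3 libraries (control, ShA and ShB), from single-end reads of 72 bases, per the labels. Its normalized columns hold a unitless score in whole numbers, deposited by the authors, and were not used. Tools named in the submitters' processing notes are Cufflinks 0.8.2, TopHat 1.0.12 and DESeq, and the build is mm9. The sources used here do not say how reads were counted, multi-mapped ones included. The test was that of edgeR 4.0.16 (R 4.3.3) on raw counts: filterByExpr, TMM scaling (factors of 0.979, 1.01 and 1.01 in that order) and the quasi-likelihood F test of both Tead4 shRNA libraries against the control, with Benjamini-Hochberg adjustment over 14478 genes. This leaves 1 residual degree of freedom, and the lone control was assumed to vary like the others. The variance of each gene was moderated over all tested genes, with 20.9 prior degrees of freedom beside this 1. The Tead4 shRNA libraries carry different shRNAs, and nothing says that they came from repeat cultures. The p-values therefore do not measure the spread between repeat cultures. The SE is the absolute log2 fold change over the square root of F, and approximate intervals are 2.07 SE wide on each side. CPM uses the TMM-scaled library size. Ratios between 2 libraries carry 95% exact intervals that cover counting error only. They treat each read as independent, although PCR copies are not independent molecules. The edgeR step was tested on simulated data. Levels per kb use the GENCODE M21 transcript with the longest coding part. Alternatives were RLE, upper-quartile and total-count scaling, other filters, DESeq2 1.42.0, limma-voom (limma 3.58.1), the newer quasi-likelihood method and a likelihood-ratio test. The members and lists were chosen with earlier results of these data known. All 42 genes could be named, and of the further list the 6 called genes per direction with the highest level and partner subunits of the members' complexes. Of these, 1 gene is not reported here. The read ratios of 2 genes, the comparisons of called with level genes, and Clspn, Chtf18, Esco2, Ticrr, Dscc1, Dnmt1 and Top2b were chosen after the values were seen.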

Additional observations from a re-analysis of the deposited data

How the results depend on the processing

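The main limits are the single control library and the 1 residual degree of freedom. With DESeq2 the number of replication genes that rose was 8 in place of 13, that of genes that fell 0 in place of 1, and that of further replication genes that rose 4 in place of 9. Over all tested genes DESeq2 called 464 higher and 374 lower, against 773 and 649 with edgeR. With the likelihood-ratio test and the dispersion over all 3 libraries, all 4 counts became 0, as did the counts over all tested genes (540 of which had an unadjusted p under 0.05). With a threshold of 1.5-fold in place of 2-fold, 19 genes were higher and 1 lower in both libraries. Leaving out either Tead4 shRNA library gave 12 to 16 genes at least 2-fold higher and 0 at least 2-fold lower, and a median log2 ratio of 0.57 to 0.70. The shares of all tested genes at 1.5-fold or with 1 Tead4 shRNA library were not computed. These gene counts therefore cannot be set against all tested genes. Of the 14 called genes, 8 (Mcm2, Mcm3, Mcm4, Mcm5, Mcm6, Rrm2, Uhrf1 and Top2a) were called in all 8 alternatives other than the likelihood-ratio test. Values near 0 changed sign: Gins4 was -0.0078 with RLE scaling and with DESeq2, Rpa3 was -0.0056, -0.0051 and -0.0023 with RLE scaling, DESeq2 and limma-voom, and Dut was 0.017 with upper-quartile and 0.023 with total-count scaling. The cause was not tested. No paired analysis was possible because the labels give no replicate numbers and the control group has 1 library. Leaving out the control library was not possible, and no test was possible with 1 Tead4 shRNA library.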
